A study of Mus musculus with 12 samples.

Results

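The nuclear genes for the subunits of oxidative phosphorylation were followed across 12 mouse liver RNA-seq libraries. They were chosen by symbol alone: genes named Ndufa, Ndufab1, Ndufb, Ndufc, Ndufs or Ndufv for complex I, Sdha to Sdhd for complex II, Uqcr or Cyc1 for complex III, Cox4 to Cox8 for complex IV and Atp5 for complex V. This gave 84 of the 53796 genes listed, 37 in complex I, 4 in complex II, 9 in complex III, 18 in complex IV and 16 in complex V. The rule uses symbols and no expression value, although the set was proposed with earlier results of these data known. The symbols also take in Atp5s, a coupling factor outside the structural enzyme, Cox7a2l, a factor for supercomplex assembly, and Ndufa4, which is named for complex I and is now placed with complex IV. Levels are FPKM (fragments of a transcript, scaled by its length and by the library), and 78 of the 84 genes reached at least 1 FPKM in at least 3 libraries and were tested.

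Each of 4 groups held 3 libraries of total liver RNA. RIPK1_D138N livers carried the D138N substitution in RIPK1, a kinase downstream of TNF receptors whose catalytic activity that substitution is known to remove. TNFR12_KO livers were labelled as knockouts of both TNF receptors, TNFR1 and TNFR2. WT and Sham livers were both wild type. Only Sham was labelled as sham, and RIPK1_D138N, TNFR12_KO and WT were read as the ischemia arm from the title of the series. The sources used here do not give the strain, the age, the length of ischemia or the time of collection. Mutant livers without ischemia were not analysed here, so for either mutant a baseline difference and an altered response to ischemia cannot be told apart. Nothing in the labels says that the repeats were separate animals, and p-values then measure only the spread between these libraries.

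Summed over all genes, FPKM reached 518580.0, 489348 and 502879 in RIPK1_D138N, 509673, 512931 and 441296 in TNFR12_KO, 291465, 303514 and 288934 in WT and 721200.0, 649373 and 750501 in Sham, so a shift of all genes together depends on how the libraries are scaled. The targeted genes did not settle the labels: Tnfrsf1a read 18.9 to 21.0 FPKM in RIPK1_D138N, 15.3 to 21.9 in TNFR12_KO, 32.3 to 38.1 in WT and 59.3 to 88.6 in Sham. Tnfrsf1b read 5.04 to 6.04 FPKM in RIPK1_D138N, 3.96 to 9.31 in TNFR12_KO, 8.13 to 10.2 in WT and 3.83 to 8.61 in Sham, and the labels do not say which part of either gene was deleted. Xist stood at 20.1 and 23.4 FPKM in replicates 2 and 3 of RIPK1_D138N, against at most 0.0824 FPKM in the other 10 libraries. The numbers on the WT and Sham columns fit the title of 1 sample and the description of another, so these libraries are numbered by their order in the table.

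Oxidative phosphorylation makes most of the ATP of a hepatocyte. Complexes I and II pass electrons from NADH and succinate to ubiquinone, complex III passes them to cytochrome c, and complex IV to oxygen. Complexes I, III and IV pump protons, and complex V, the ATP synthase, uses the gradient. Every complex but II joins nuclear subunits to a few encoded in mitochondrial DNA, and ischemia stops the chain by removing its electron acceptor. Promoters of the nuclear genes are known for sites of the transcription factors NRF1, GABP (an ETS factor), YY1 and the estrogen-related receptors (ERR).

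Promoters are shown for 5 members on which the results below turn: Atp5b, the highest member of complex V, Atp5k, among the largest differences, Ndufa8, lower than Sham in both mutants, Atp5g2, which changed less than its paralogs, and Cox7a1, which departed from the rest. Each runs 5′ to 3′ on the gene's strand from 250 bases before the transcription start to 50 bases after it, from RefSeq on build GRCm38.p6. Capitals mark matches on either strand to GCGCANGCG for NRF1, CCGGAAG for GABP, AANATGGCG for YY1 and TCAAGGTCA for ERR, and overlapping matches merge into 1 run of capitals.
Atp5b (chr10:128083057-128083356, plus strand): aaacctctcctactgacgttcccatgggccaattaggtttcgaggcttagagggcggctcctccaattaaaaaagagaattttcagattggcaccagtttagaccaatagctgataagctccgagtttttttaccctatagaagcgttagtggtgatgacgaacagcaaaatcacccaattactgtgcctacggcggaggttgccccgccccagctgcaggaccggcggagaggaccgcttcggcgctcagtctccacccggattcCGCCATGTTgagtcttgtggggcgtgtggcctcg
Atp5k (chr5:108434350-108434649, minus strand): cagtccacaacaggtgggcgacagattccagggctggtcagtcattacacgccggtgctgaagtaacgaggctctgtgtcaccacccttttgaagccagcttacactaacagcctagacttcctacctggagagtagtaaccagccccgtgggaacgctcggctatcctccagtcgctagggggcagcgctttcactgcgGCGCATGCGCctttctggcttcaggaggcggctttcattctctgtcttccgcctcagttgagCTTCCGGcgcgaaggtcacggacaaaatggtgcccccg
Ndufa8 (chr2:36049289-36049588, minus strand): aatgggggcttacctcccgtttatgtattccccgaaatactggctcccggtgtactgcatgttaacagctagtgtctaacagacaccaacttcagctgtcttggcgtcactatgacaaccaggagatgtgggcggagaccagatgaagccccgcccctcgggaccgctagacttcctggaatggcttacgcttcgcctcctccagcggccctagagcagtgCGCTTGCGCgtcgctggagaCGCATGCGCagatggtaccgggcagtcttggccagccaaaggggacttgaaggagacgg
Atp5g2 (chr15:102670998-102671297, minus strand): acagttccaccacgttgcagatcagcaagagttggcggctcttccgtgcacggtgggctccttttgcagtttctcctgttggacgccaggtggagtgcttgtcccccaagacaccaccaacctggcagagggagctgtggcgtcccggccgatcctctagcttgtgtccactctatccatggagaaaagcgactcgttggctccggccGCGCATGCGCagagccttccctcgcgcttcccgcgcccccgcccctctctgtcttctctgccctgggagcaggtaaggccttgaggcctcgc
Cox7a1 (chr7:30183921-30184220, plus strand): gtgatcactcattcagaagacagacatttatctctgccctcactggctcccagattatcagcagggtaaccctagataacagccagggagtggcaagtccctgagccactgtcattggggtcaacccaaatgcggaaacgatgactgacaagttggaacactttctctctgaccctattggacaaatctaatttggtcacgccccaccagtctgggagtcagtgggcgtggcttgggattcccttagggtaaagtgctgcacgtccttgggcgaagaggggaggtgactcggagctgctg
The Atp5b promoter held 1 YY1 match, Atp5k held 2 overlapping NRF1 matches and 1 GABP match, Ndufa8 held 2 NRF1 matches, Atp5g2 held 2 overlapping NRF1 matches, and Cox7a1 held no match. Promoter entries were found for 67 of the 84 members, in 72 windows. The NRF1 sequence occurred in 29.2% of these windows (95% Wilson interval 19.9 to 40.5%), against 13.5% of the 10601 windows of all tested genes and 6.25% of 32851 windows of any gene. YY1 matched 13.9% of member windows (7.72 to 23.7%), against 5.24% for tested genes and 2.38% for any gene. GABP matched 22.2% (14.2 to 33.1%), against 18.1% for tested genes and 8.86% for any gene. ERR matched 2.78% (0.765 to 9.57%), against 0.264% and 0.423%. In the bases before the start alone, YY1 matched 4.17% of member windows, against 2.24% for tested genes and 1.12% for any gene, and ERR 1.39%, against 0.245% and 0.387%. There NRF1 matched 20.8%, against 11.1% and 5.16%, and GABP 16.7%, against 13.8% and 6.91%. A match says only that these letters occur in the window.

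All 5 complexes were low in WT livers and stood near Sham in both mutants. The plot of all tested members by library shows this as a blue block of WT columns, broken by a few genes.

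**Figure D1:**
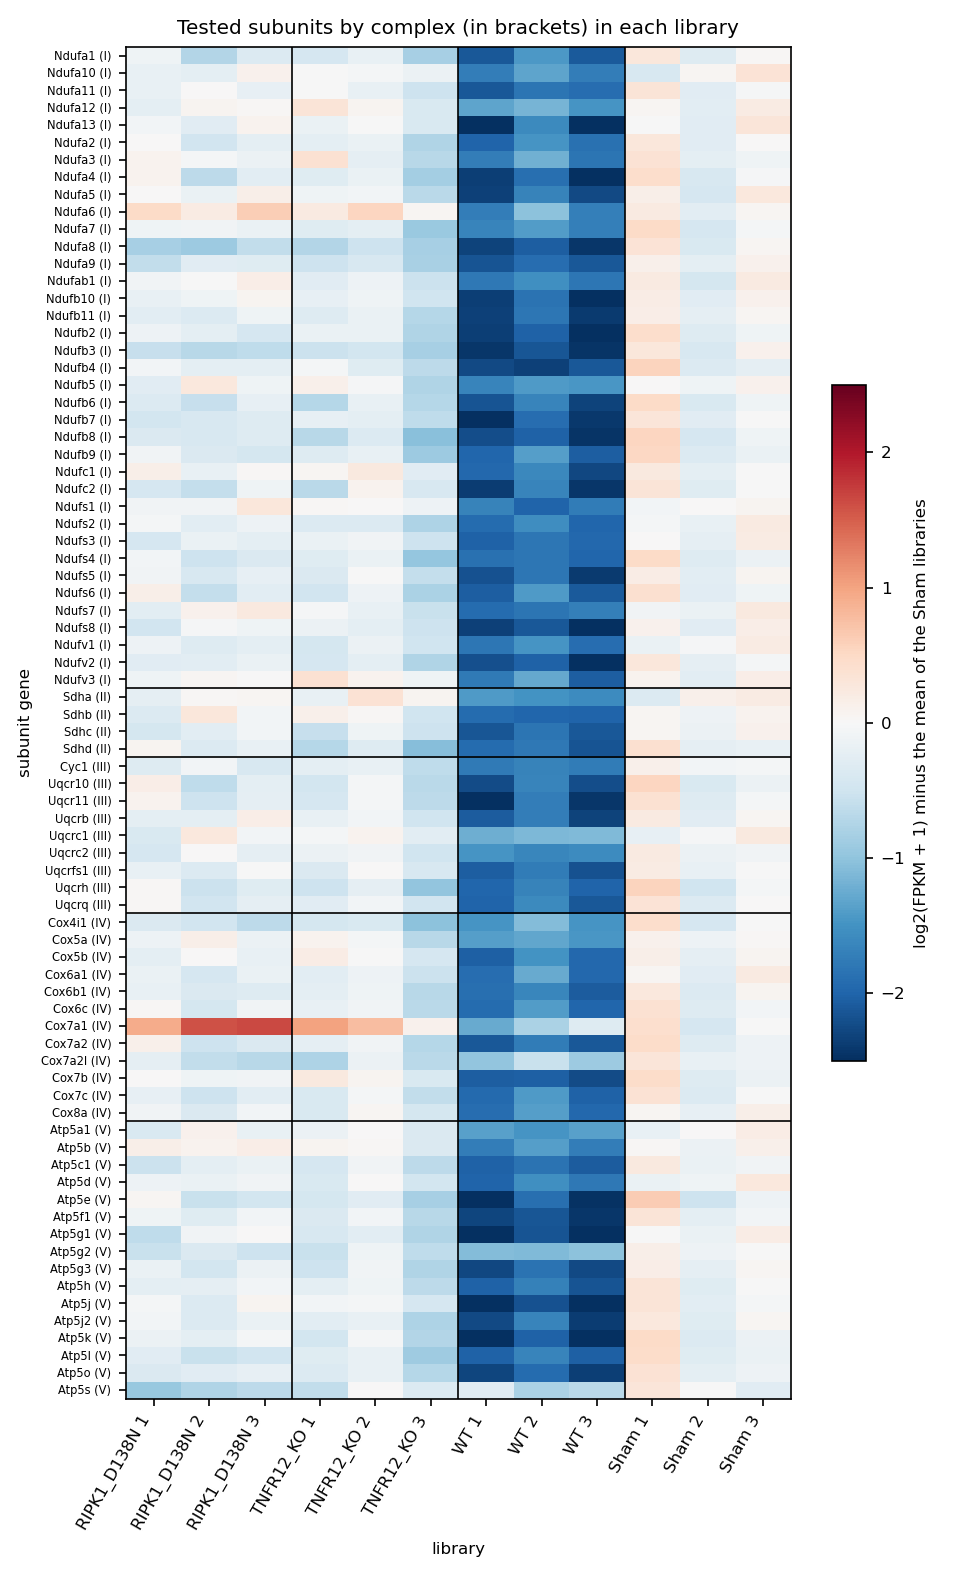
Level of each of the 78 tested members in each of the 12 libraries, as log2(FPKM + 1) minus the mean of the 3 Sham libraries, with colours limited to -2.5 and 2.5 and members sorted by complex. WT columns are blue for nearly every gene, Cox7a1 is red in RIPK1_D138N, and Atp5s and Cox7a2l are paler in WT than their neighbours.

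The median FPKM of the tested complex I members was 145, 127 and 148 in the RIPK1_D138N libraries, 126, 141 and 97.6 in TNFR12_KO, 38.2, 48.3 and 35.9 in WT and 185, 133 and 185 in Sham. For complex III it was 396, 398 and 494 in RIPK1_D138N, 414, 449 and 305 in TNFR12_KO, 111, 141 and 93.4 in WT and 546, 389 and 489.6 in Sham. For complex V it was 283, 288 and 299 in RIPK1_D138N, 269, 313 and 208 in TNFR12_KO, 66.1, 91.2 and 65.3 in WT and 401, 297 and 336 in Sham. In each of these complexes every WT library lay below every library of the other 3 groups, and the mutants overlapped Sham. Complexes II and IV had group means of 144 ± 19.8 and 332 ± 25.2 FPKM in RIPK1_D138N, 136 ± 27.3 and 317 ± 61.3 FPKM in TNFR12_KO, 44.9 ± 2.78 and 116 ± 12.8 FPKM in WT, and 158 ± 10.1 and 389 ± 83.3 FPKM in Sham (SD, n = 3 each).

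**Figure D2:**
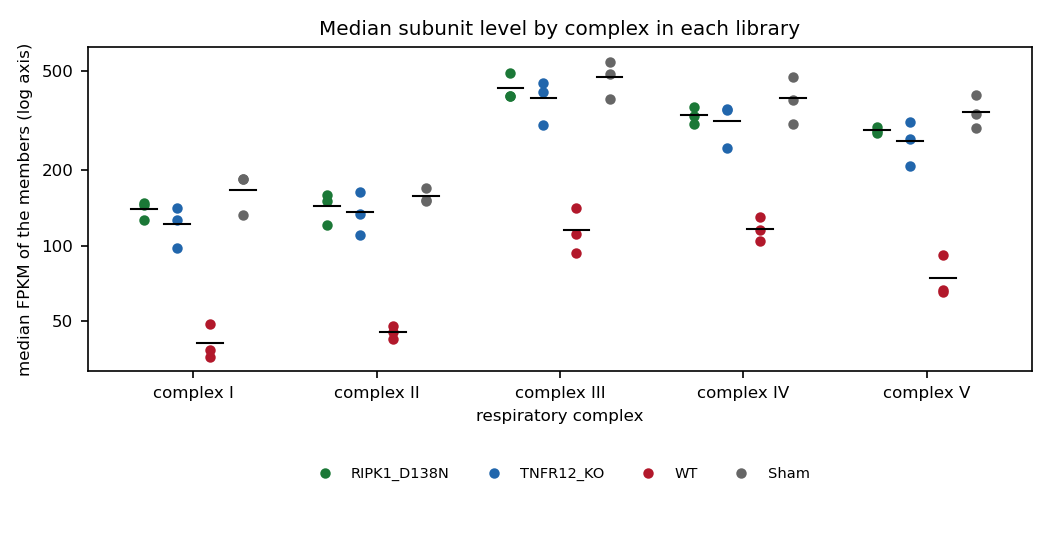
Median FPKM of the tested members of each complex (log axis), with 1 point for each library and a line at the mean of each group's 3 libraries. In every complex the 3 WT points lie below the points of RIPK1_D138N, TNFR12_KO and Sham.

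As a share of all FPKM in a library, which does not move with its scaling, the 84 genes made up 4.21, 3.84 and 4.17% in RIPK1_D138N, 3.82, 4.27 and 3.44% in TNFR12_KO, 2.00, 2.56 and 1.94% in WT and 4.001, 2.98 and 3.18% in Sham. WT was lowest in every library by this measure too, and the ranges of the mutants and Sham overlapped.

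Against WT, RIPK1_D138N livers held higher transcript levels of the respiratory chain and ATP synthase throughout. Of the 78 tested members, 76 were called higher and 0 lower (limma, adjusted p under 0.05), while 29.8% of all tested genes were called higher and 51.8% in either direction. The median log2 fold change was 1.72 over the members and 0.11 over all tested genes. All 37 members of complex I, all 4 of complex II and all 9 of complex III were called, with medians of 1.74, 1.79 and 1.68. In complexes IV and V, 11 of 12 and 15 of 16 were called, with medians of 1.57 and 1.82. The members not called were Cox7a2l and Atp5s. In the other 76 no RIPK1_D138N library overlapped a WT library, against 34.9% of all tested genes higher without overlap.

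TNFR12_KO gave the same counts against the same WT libraries: 76 members were called higher and 0 lower, against 29.6% of all tested genes called higher and 47.1% in either direction, and Cox7a2l and Atp5s were again not called. The median log2 fold change was 1.58 over the members and 0.14 over all tested genes. By complex the medians were 1.67, 1.60, 1.63, 1.45 and 1.64 in complexes I to V. Libraries did not overlap in 76 members, against 35.6% of all tested genes higher without overlap. Both comparisons use the WT libraries, so their likeness is no independent evidence.

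In WT against Sham, all 78 tested members were called lower, against 41.9% of all tested genes called lower and 58.2% in either direction. Their median log2 fold change was -1.92, and that of all tested genes was -0.36. The medians ran from -1.76 in complex IV to -2.04 in complex V, with -1.95, -1.96 and -1.90 in complexes I to III. In 76 of the 78 members no WT library overlapped a Sham library, against 45.5% of all tested genes lower without overlap. The exceptions were Cox7a1 and Atp5s.

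**Figure D3:**
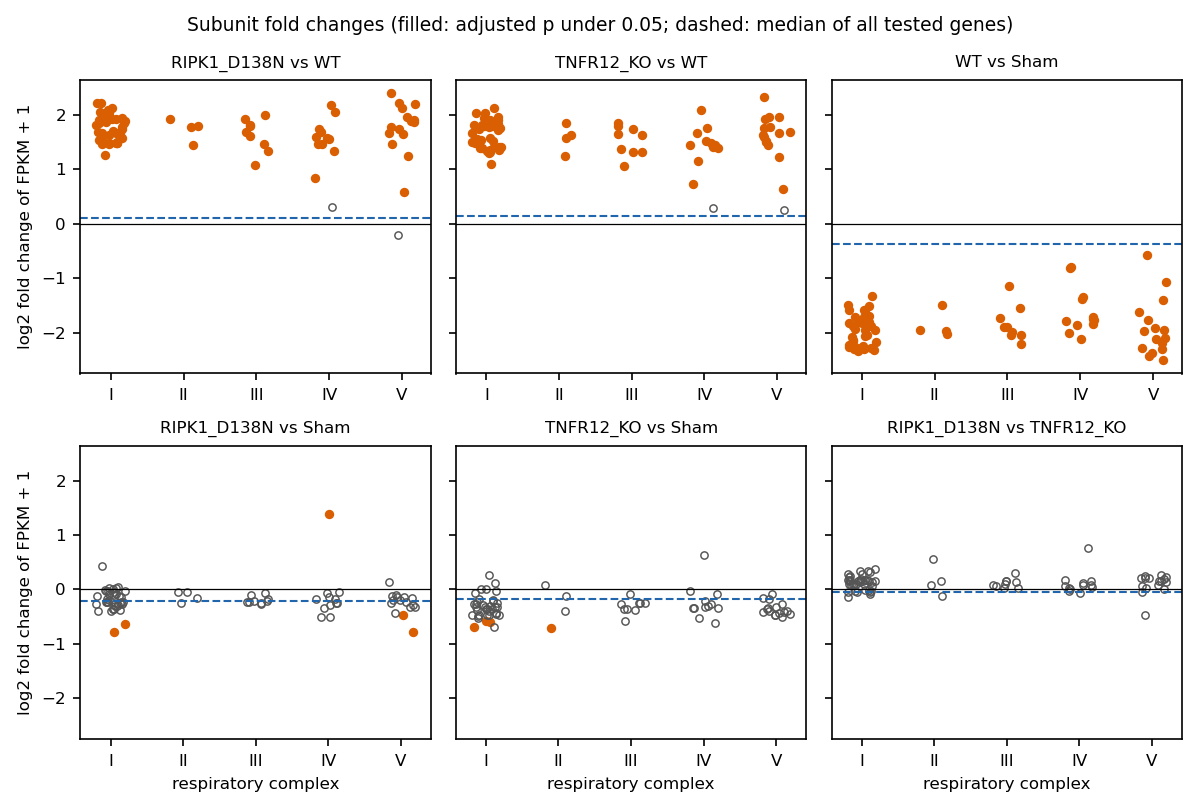
Log2 fold change of FPKM + 1 for each tested member, by complex, in the 6 comparisons. Filled points passed an adjusted p of 0.05 and the dashed line is the median of all 11728 tested genes. The members stand well off that line in the 3 comparisons that include WT and lie closer to it in the other 3, where most lie below it in TNFR12_KO against Sham and above it in RIPK1_D138N against TNFR12_KO.

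The size of these medians depended on the scaling, and their direction did not under the 4 other treatments of the libraries that were run. With each library rescaled to the same FPKM sum, the member medians were 0.96 for RIPK1_D138N and 0.89 for TNFR12_KO against WT, and -0.68 for WT against Sham. That rescaling moved the median of all tested genes to -0.55, -0.48 and 0.67 in these comparisons. The member median minus that of all genes was then 1.52, 1.37 and -1.35, against 1.61, 1.44 and -1.55 on the deposited scale. The rescaled counts were 73 members higher and 1 lower in RIPK1_D138N, 72 higher in TNFR12_KO and 60 lower in WT against Sham. Of all tested genes, 14.3% were then called higher and 48.1% lower in RIPK1_D138N against WT. In TNFR12_KO against WT 14.6% were higher, and in WT against Sham 10.1% were lower. Of all called genes, the rescaled share higher was 22.9% in RIPK1_D138N against WT, 24.97% in TNFR12_KO against WT and 84.1% in WT against Sham, where the deposited scale gave 57.7%, 62.8% and 28.1%.

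**Figure D4:**
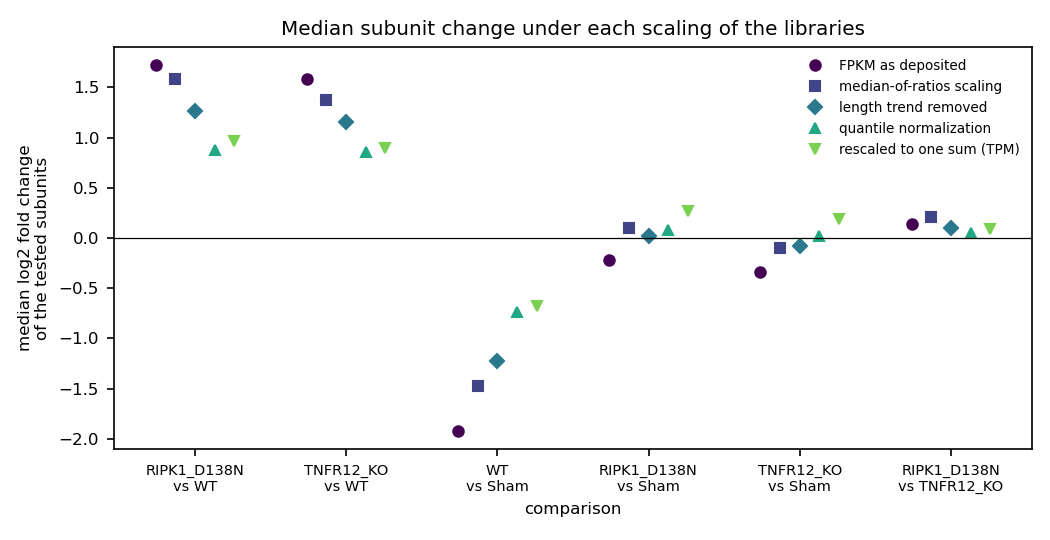
Median log2 fold change of the 78 tested members in each comparison, as deposited and under 4 other treatments of the libraries. The medians of both mutants against WT stay above 0 and those of WT against Sham below 0, while the small medians of RIPK1_D138N against Sham turn positive under all 4 and those of TNFR12_KO under 2 of them.

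Subunit transcripts are short, and short genes as a class moved the same way. The members had a median transcript length of 751 bases, against 2244 bases over all tested genes with a length. Among genes of up to 1000 bases, the median log2 fold change in WT against Sham was -1.93 for 50 members and -0.77 for all 2190 genes. Among genes of 1000 to 3000 bases it was -1.91 for 28 members and -0.45 for all 5582. With the trend of log2 level on length removed from each library, 74 members were called lower in WT, with a median of -1.22, against 27.4% of all tested genes lower and a median of 0.0030 over them.

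Hepatocyte markers moved together with the members. The 10 markers summed to 40399.6, 44235 and 43710.4 FPKM in RIPK1_D138N, 43778, 38864 and 31568 in TNFR12_KO, 12639.6, 17319.5 and 11542 in WT and 52032, 51747 and 65508 in Sham. All 10 were called lower in WT against Sham, with a median log2 fold change of -2.06. Against WT, 8 were called higher and 1 lower in RIPK1_D138N, and 7 higher and 2 lower in TNFR12_KO. Of all tested genes, 41.9% were called lower in WT against Sham. Against WT, 29.8% of them were higher and 21.9% lower in RIPK1_D138N, and 29.6% and 17.5% in TNFR12_KO. Serpina1c was listed at 0 in the 3 TNFR12_KO libraries, which can be failed estimates. In bulk tissue, fewer cells of a type and less RNA per cell cannot be told apart. Red cell markers (3 of 3 tested) summed to 1546, 754 and 887 FPKM in RIPK1_D138N, 854, 845 and 1701 in TNFR12_KO, 67.8, 78.9 and 125 in WT and 231, 281 and 146 in Sham. Macrophage markers (5 of 7 tested) summed to 15.7 to 18.4 FPKM in RIPK1_D138N, 9.18 to 11.9 in TNFR12_KO, 59.1 to 84.3 in WT and 57.0 to 88.0 in Sham. Cd68 made up most of the WT sum at 41.7, 60.8 and 46.3 FPKM, against 2.71, 2.23 and 2.14 in Sham, and the other 4 tested macrophage markers were called lower in WT against Sham. Cholangiocyte markers (3 of 4 tested) summed to 5.12 to 21.2 FPKM in RIPK1_D138N, 8.28 to 12.4 in TNFR12_KO, 27.1 to 32.1 in WT and 2.41 to 4.60 in Sham. Sox9 made up most of the WT sum at 28.9, 15.9 and 27.2 FPKM. Krt19 made up most of the sum in RIPK1_D138N replicate 1 at 14.0 FPKM. Of the 3 tested, 1 was called higher and 1 lower in each mutant against WT. In WT against Sham 2 were called higher, against 16.4% of all tested genes. Neutrophil markers (4 of 5 tested) summed to 4.11 to 181 FPKM in RIPK1_D138N, 11.9 to 156 in TNFR12_KO, 4.56 to 258 in WT and 37.3 to 80.9 in Sham. The part of these cell types in the member differences was not tested.

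Complex I, the NADH dehydrogenase, is the largest complex of the chain. Its 7 nuclear core subunits, which carry the flavin and the iron-sulfur clusters, had a median log2 fold change of 1.84 in RIPK1_D138N and 1.67 in TNFR12_KO against WT. Its 30 other members had 1.72 and 1.65. In WT against Sham these medians were -1.82 for the core and -2.00 for the others, and the ranges overlapped, from -2.33 to -1.72 and from -2.34 to -1.32.

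Ndufs1, the largest core subunit, read 38.8, 39.3 and 50.6 FPKM in RIPK1_D138N, 42.5, 41.8 and 37.9 in TNFR12_KO, 12.3, 9.59 and 11.6 in WT and 39.5, 41.6 and 43.6 in Sham. Both mutants were above WT without overlap and overlapped Sham. Its log2 fold change was 1.84 ± 0.16 (SE) in RIPK1_D138N against WT (limma adjusted p = 2.02e-06) and 0.03 against Sham (95% interval -0.30 to 0.37).

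Ndufa4, highest of the Nduf genes, is a subunit found with cytochrome c oxidase. It read 984, 583 and 762 FPKM in RIPK1_D138N, 741, 821 and 513 in TNFR12_KO, 179, 249.6 and 152 in WT and 1250.3, 693 and 900.1 in Sham. WT stood apart below the other groups, and Sham library 1 was the highest of all. The log2 fold change was 2.00 ± 0.28 (SE) in RIPK1_D138N, 1.83 ± 0.28 in TNFR12_KO against WT, and -2.27 ± 0.28 in WT against Sham (limma adjusted p = 8.72e-05, 0.000193 and 2.37e-05).

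Ndufa13, also named GRIM19, had the largest complex I difference between the mutants and WT. It read 114, 97.4 and 127 FPKM in RIPK1_D138N, 106, 118 and 91.4 in TNFR12_KO, 18.6, 38.9 and 17.4 in WT and 118, 97.8 and 147 in Sham. WT library 2 lay well above the other WT libraries but below every library of the other groups. The log2 fold change was 2.22 ± 0.27 (SE) in RIPK1_D138N and 2.12 ± 0.27 in TNFR12_KO against WT (limma adjusted p = 2.47e-05 and 4.06e-05).

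Ndufa6, an accessory subunit of the LYR family, was the complex I member that stood highest above Sham in both mutants. It read 422, 346 and 462 FPKM in RIPK1_D138N, 355, 436 and 312 in TNFR12_KO, 90.7, 148 and 91.3 in WT and 351, 253 and 311 in Sham. The mutants overlapped Sham, with log2 fold changes of 0.43 (95% interval -0.06 to 0.92) in RIPK1_D138N and 0.27 (-0.22 to 0.76) in TNFR12_KO, neither called. Ndufb9, second in level among the complex I genes, averaged 384 ± 50.7 FPKM in RIPK1_D138N, 345 ± 84.8 in TNFR12_KO, 137 ± 38.2 in WT and 486 ± 160.5 in Sham (SD, n = 3 each).

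Complex II, succinate dehydrogenase, belongs both to the chain and to the tricarboxylic acid cycle and has no subunit from mitochondrial DNA. Its flavoprotein Sdha read 127, 149.7 and 152 FPKM in RIPK1_D138N, 128, 189.8 and 155 in TNFR12_KO, 54.5, 51.4 and 48.9 in WT and 116, 161 and 170.2 in Sham. The membrane anchor Sdhd read 243, 181 and 203 FPKM in RIPK1_D138N, 139.8, 184 and 109.9 in TNFR12_KO, 59.9, 66.2 and 51.1 in WT and 304, 198 and 204 in Sham. Both genes were lowest in WT, and Sdhd in 2 of the 3 TNFR12_KO libraries lay below every RIPK1_D138N and Sham library. Sdha had a log2 fold change of 1.45 ± 0.19 (SE) in RIPK1_D138N and 1.58 ± 0.19 in TNFR12_KO against WT (limma adjusted p = 5e-05 and 2.86e-05). For Sdhd these were 1.80 ± 0.23 and 1.25 ± 0.23 (limma adjusted p = 3.38e-05 and 0.000616). Sdhc, the other anchor, averaged 132 ± 16.7 FPKM in RIPK1_D138N, 119.9 ± 21.8 in TNFR12_KO, 37.9 ± 5.03 in WT and 157 ± 14.2 in Sham (SD, n = 3 each).

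In complex III, the cytochrome bc1 complex, the core proteins had smaller median log2 fold changes than the small subunits, although Uqcrc2 and the small subunit Uqcrh stood level at 1.31 in TNFR12_KO against WT. Uqcrc1 and Uqcrc2, the core proteins, had log2 fold changes of 1.09 and 1.34 in RIPK1_D138N, and 1.07 and 1.31 in TNFR12_KO, against WT. Cyc1 and Uqcrfs1, the cytochrome c1 and Rieske iron-sulfur subunits, had 1.47 and 1.81 in RIPK1_D138N and 1.37 and 1.74 in TNFR12_KO. The 5 small subunits had medians of 1.80 and 1.65. The differences between these classes were not tested.

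Uqcrc1 read 98.9, 155 and 122 FPKM in RIPK1_D138N, 124, 136 and 107 in TNFR12_KO, 54.6, 58.6 and 59.2 in WT and 111, 126 and 151 in Sham. The WT libraries lay close together below all others. It fell by 1.15 ± 0.19 (SE) on the log2 scale in WT against Sham (limma adjusted p = 0.000214), but stood 0.10 above Sham with libraries rescaled to 1 sum and 0.03 above with quantile normalization.

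Uqcrq, known as a ubiquinone-binding subunit, was its highest member at 1056, 745 and 889.6 FPKM in RIPK1_D138N, 857, 988 and 740.1 in TNFR12_KO, 259, 343 and 238 in WT and 1309, 816 and 1045 in Sham. WT did not overlap any other group. The log2 fold change was 1.68 ± 0.23 (SE) in RIPK1_D138N and 1.63 ± 0.23 in TNFR12_KO against WT (limma adjusted p = 6.05e-05 and 8.73e-05). Uqcr11 and Uqcr10, next in level, had 2.00 and 1.80 in RIPK1_D138N, 1.85 and 1.65 in TNFR12_KO against WT, and -2.21 and -2.04 in WT against Sham.

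Complex IV, cytochrome c oxidase, had a smaller difference in its most abundant subunit transcript than in most others. Cox4i1 (ENSMUSG00000031818, chromosome 8, 120668222 to 120674207, build GRCm38) read 751, 691 and 609 FPKM in RIPK1_D138N, 716, 738 and 471 in TNFR12_KO, 347, 457 and 346 in WT and 1313, 719 and 954 in Sham. Every WT library lay below every other library, with TNFR12_KO replicate 3 the nearest. The log2 fold change was 0.84 ± 0.25 (SE) in RIPK1_D138N and 0.73 ± 0.25 in TNFR12_KO against WT (limma adjusted p = 0.013 and 0.0296), and it turned to -0.12 in each with quantile normalization. The table's locus for Cox4i1 runs 4429380 bases beyond the annotated gene, so its fragments may include those of other genes. Loci exceeded the gene by over 1000 bases for 24 of the 84 members.

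The composition of the members' transcripts shifted towards complex IV in WT. Complex IV genes made up 22.3, 22.2 and 21.4% of the members' summed FPKM in RIPK1_D138N, 23.4, 22.8 and 22.6% in TNFR12_KO, 26.7, 27.2 and 26.8% in WT and 22.8, 22.6 and 23.1% in Sham. Without Cox4i1 the shares were 19.5, 19.2 and 19.1% in RIPK1_D138N, 20.4, 20.1 and 20.1% in TNFR12_KO, 22.0, 22.7 and 22.0% in WT and 19.1, 19.6 and 19.9% in Sham. WT was highest with and without that gene, with no overlap. This share was looked at after the values were seen and was not tested.

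Cox6c and Cox7c, next in level and both small membrane subunits, had log2 fold changes of 1.60 and 1.46 in RIPK1_D138N, 1.45 and 1.45 in TNFR12_KO against WT, and -1.77 and -1.79 in WT against Sham. Cox7b, an X-linked member, had 2.09 ± 0.21 (SE) in TNFR12_KO against WT (limma adjusted p = 8e-06).

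Cox7a2l, which joins complexes III and IV into supercomplexes, was the tested oxidase gene with the smallest difference between the mutants and WT. It read 93.4, 71.0 and 67.4 FPKM in RIPK1_D138N, 63.8, 98.1 and 67.9 in TNFR12_KO, 54.7, 74.3 and 57.8 in WT and 135, 96.1 and 101 in Sham. The mutants overlapped WT. Its log2 fold change against WT was 0.30 (95% interval -0.16 to 0.77) in RIPK1_D138N and 0.28 (-0.19 to 0.75) in TNFR12_KO, with limma adjusted p of 0.256 and 0.306. In WT against Sham it fell by 0.82 ± 0.22 (SE; limma adjusted p = 0.00601), but stood 0.43 above Sham with libraries rescaled to 1 sum and 0.36 above with quantile normalization.

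Cox7a1, the isoform of this subunit known from heart and skeletal muscle, was the only member called above Sham in either mutant on the deposited scale. It (ENSMUSG00000074218, chromosome 7, 30184144 to 30186078, build GRCm38) read 6.54, 10.9 and 11.4 FPKM in RIPK1_D138N, 6.93, 5.76 and 3.22 in TNFR12_KO, 0.644, 1.29 and 2.17 in WT and 4.31, 1.96 and 2.90 in Sham. Every RIPK1_D138N library exceeded every WT and Sham library, while TNFR12_KO overlapped Sham. In RIPK1_D138N the log2 fold change was 1.39 ± 0.31 (SE) against Sham (limma adjusted p = 0.0059) and 2.18 ± 0.31 against WT (limma adjusted p = 9.1e-05). Without replicates 2 and 3, the libraries with Xist, the difference from Sham was 0.94 with a limma adjusted p of 0.183. In TNFR12_KO it was 0.63 (95% interval -0.05 to 1.30) against Sham and 1.42 ± 0.31 against WT (limma adjusted p = 0.00244). In WT against Sham it was -0.79 (limma adjusted p = 0.0453) and turned to 0.02 with rescaled libraries and to 0.03 with the length trend removed.

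The 4 muscle markers summed to at most 0.18 FPKM in any library, and none of them was tested. Myh4 was listed at 0 in all 12. Stellate cell markers (5 of 5 tested) summed to 13.03, 32.1 and 35.0 FPKM in RIPK1_D138N, 18.2, 10.0 and 14.8 in TNFR12_KO, 42.8, 17.0 and 36.6 in WT and 6.27, 8.15 and 5.73 in Sham. Col3a1 made up most of the WT sum at 32.2, 10.4 and 27.7 FPKM. Reln read 6.68, 15.3 and 15.1 FPKM in RIPK1_D138N and 4.18, 3.53 and 3.52 in WT. In RIPK1_D138N against WT, 3 of the 5 were called higher and 2 lower, against 29.8% and 21.9% of all tested genes. Against Sham all 5 were called higher in RIPK1_D138N, against 7.51% of all tested genes. Sinusoidal endothelial markers (5 of 5 tested) summed to 12.5, 78.2 and 49.8 FPKM in RIPK1_D138N, 37.6, 7.78 and 25.2 in TNFR12_KO, 17.1, 14.2 and 13.9 in WT and 37.2, 36.3 and 22.9 in Sham. Clec4g made up most of the RIPK1_D138N sum at 6.73, 55.4 and 34.4 FPKM. Of these 5 markers, 2 were called higher and 1 lower in RIPK1_D138N against WT. Against Sham 0 were called in RIPK1_D138N, against 30.2% of all tested genes in either direction. The RIPK1_D138N replicates 2 and 3, with more Cox7a1 than replicate 1, were also those with more of both marker sets, and their part in the difference was not tested.

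**Figure D5:**
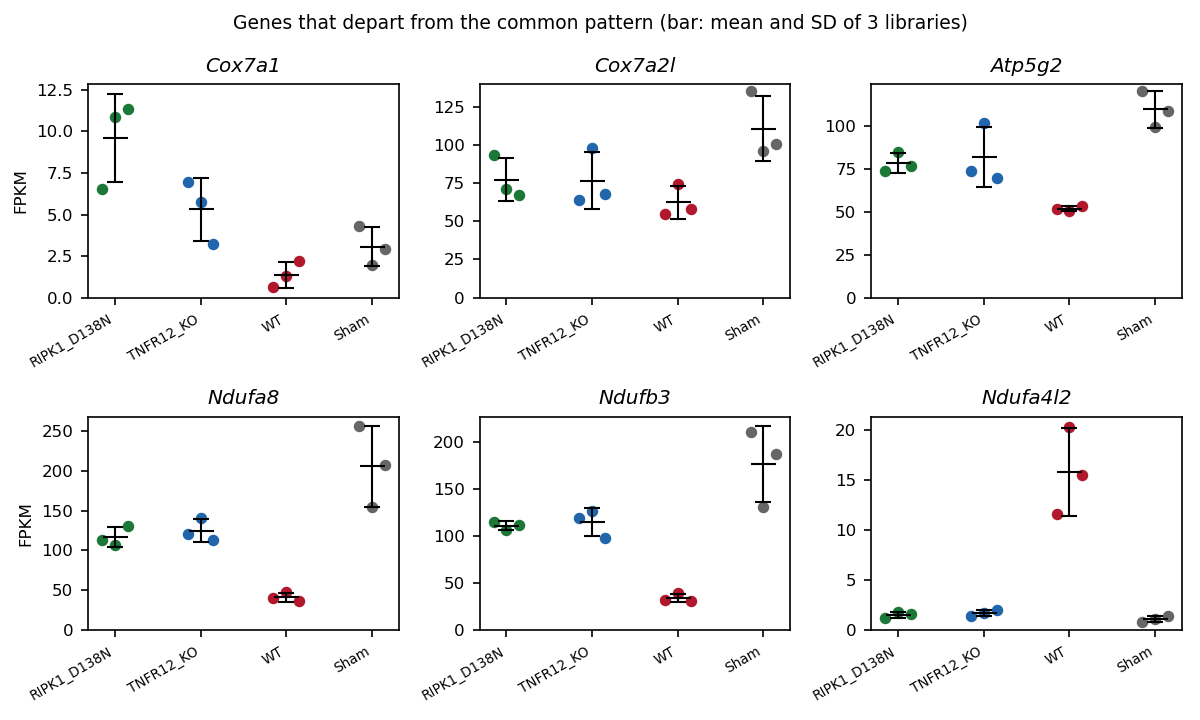
FPKM of 5 members and of Ndufa4l2 in each library, with a bar at the mean and SD of the 3 libraries of a group. Cox7a1 is highest in RIPK1_D138N, Cox7a2l overlaps between the mutants and WT, Atp5g2 differs less than most members, Ndufa8 and Ndufb3 lie below Sham in both mutants, and Ndufa4l2 is high in WT.

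Complex V, the ATP synthase, held the member with the largest difference in each comparison with WT. Its catalytic head (5 members) had median log2 fold changes of 1.66 in RIPK1_D138N and 1.52 in TNFR12_KO against WT, and -1.78 in WT against Sham. The 7 genes of its stalk and membrane part had 1.91, 1.78 and -2.19. Atp5b, the catalytic beta subunit, was the highest member of complex V at 992, 946 and 998 FPKM in RIPK1_D138N, 929, 909 and 694 in TNFR12_KO, 267, 344 and 267 in WT and 906, 803 and 974 in Sham. The WT libraries lay below all others, and both mutants overlapped Sham. The log2 fold change was 1.75 ± 0.18 (SE) in RIPK1_D138N and 1.52 ± 0.18 in TNFR12_KO against WT (limma adjusted p = 7.97e-06 and 2.62e-05).

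Atp5j, coupling factor 6 of the peripheral stalk, had the largest difference of all members. It read 384, 314 and 419 FPKM in RIPK1_D138N, 381, 384 and 298 in TNFR12_KO, 64.5, 87.8 and 58.9 in WT and 497, 333 and 383 in Sham. WT stood far below every other library. The log2 fold change was 2.40 ± 0.21 (SE) in RIPK1_D138N, 2.33 ± 0.21 in TNFR12_KO against WT, and -2.51 ± 0.21 in WT against Sham (limma adjusted p = 2.89e-06, 3.7e-06 and 1.2e-06).

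Atp5k, subunit e of the membrane part, read 305, 284 and 327 FPKM in RIPK1_D138N, 244, 328 and 203 in TNFR12_KO, 59.3, 82.7 and 54.6 in WT and 473, 265 and 305 in Sham. WT again did not overlap the others. Its log2 fold change was 2.22 ± 0.25 (SE) in RIPK1_D138N against WT (limma adjusted p = 1.25e-05) and -2.37 ± 0.25 in WT against Sham (limma adjusted p = 5.7e-06). Atp5e, subunit epsilon, read 797, 523 and 561 FPKM in RIPK1_D138N, 571, 629 and 433 in TNFR12_KO, 137, 208 and 137.5 in WT and 1195, 539.6 and 706 in Sham, with Sham library 1 far above the other Sham libraries.

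Atp5s was the only Atp5 gene not called in either mutant against WT. It read 2.08, 2.54 and 2.75 FPKM in RIPK1_D138N, 2.87, 4.95 and 3.65 in TNFR12_KO, 3.90, 2.42 and 2.71 in WT and 6.30, 4.86 and 3.88 in Sham. RIPK1_D138N overlapped WT and lay below every TNFR12_KO and Sham library. Its log2 fold change against WT was -0.20 (95% interval -0.66 to 0.25) in RIPK1_D138N and 0.26 (-0.20 to 0.72) in TNFR12_KO. Like the other Atp5 genes it fell in WT against Sham on the deposited scale, at -0.58 ± 0.21 (SE; limma adjusted p = 0.0306). With libraries rescaled to 1 sum it turned direction and stood above Sham in WT.

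The c ring of complex V is built from identical peptides that 3 genes encode, and these genes changed unequally. Atp5g1 had a log2 fold change of 2.201 ± 0.22 (SE), Atp5g3 1.87 ± 0.21 and Atp5g2 0.59 ± 0.17 in RIPK1_D138N against WT (limma adjusted p = 4.97e-06, 1.63e-05 and 0.0103). In TNFR12_KO against WT they had 1.96, 1.67 and 0.63, and in WT against Sham -2.44, -2.12 and -1.07. Atp5g2 read 73.8, 84.9 and 76.4 FPKM in RIPK1_D138N, 73.8, 102 and 69.5 in TNFR12_KO, 51.3, 50.4 and 53.2 in WT and 120.5, 99.2 and 109 in Sham. WT was lowest but by less than for the other c ring genes. With libraries rescaled to 1 sum its difference turned to -0.17 and -0.08 in the mutants against WT and to 0.18 in WT against Sham.

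The ratio of 2 genes within a library compares them apart from its scaling, except that the log2 ratios take FPKM + 1 and so move with scaling and pseudocount where a gene is low. Atp5g2 stood at 8.42, 11.8 and 8.57% of Atp5g3 in RIPK1_D138N, 10.8, 11.0 and 11.9% in TNFR12_KO, 25.4, 18.4 and 25.8% in WT and 10.9, 11.8 and 10.7% in Sham. The 3 WT libraries lay above the other 9. The log2 ratio differed by -1.28 in RIPK1_D138N and -1.03 in TNFR12_KO against WT, and by 1.05 in WT against Sham. Each difference had p = 0.1 in an exact two-sided permutation test, the lowest value possible with 3 against 3, and 0.2 after adjustment over the 48 tests of 8 pairs in 6 comparisons. For Atp5g1 over Atp5g3 the log2 ratio differed by 0.33 in RIPK1_D138N (exact p = 0.4) and 0.30 in TNFR12_KO (exact p = 0.1) against WT.

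The hypoxia-linked paralog of Ndufa4 had the largest shift in ratio. Ndufa4l2, known as a target of hypoxia-inducible factor, read 1.18, 1.74 and 1.57 FPKM in RIPK1_D138N, 1.33, 1.69 and 2.02 in TNFR12_KO, 11.6, 20.4 and 15.5 in WT and 0.773, 1.06 and 1.42 in Sham. It rose in WT, with a log2 fold change of 2.99 ± 0.21 (SE) against Sham (limma adjusted p = 2.6e-07), and had -2.73 in RIPK1_D138N and -2.62 in TNFR12_KO against WT (limma adjusted p = 1.04e-06 and 1.49e-06). It stood at 0.120, 0.298 and 0.206% of Ndufa4 in RIPK1_D138N, 0.180, 0.205 and 0.395% in TNFR12_KO, 6.48, 8.15 and 10.2% in WT and 0.0619, 0.152 and 0.158% in Sham. The log2 ratio differed by -4.72 in RIPK1_D138N and -4.46 in TNFR12_KO against WT, and by 5.26 in WT against Sham, each with an exact p of 0.1. With a pseudocount of 0.1 these were -5.30, -4.98 and 6.03. Of the 5 tested genes of the hypoxia-linked list, Ndufa4l2 was the only one called higher in WT against Sham, Bnip3, a mitophagy receptor, was called lower at -0.70 (limma adjusted p = 0.017), and Higd1a, Lonp1 and Pdk1 were not called. Of all tested genes, 16.4% were called higher and 41.9% lower in that comparison.

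The 6 members under the filter are isoforms known from other tissues, and all were low. Their highest values in any library were 0.956 FPKM for Cox4i2, 0.136 for Cox6a2, 0.478 for Cox6b2 and 0.598 for Cox8b, and Cox7b2 and Cox8c were listed at 0 throughout. Cox4i2, the lung isoform that hypoxia is known to induce, read 0, 0.154 and 0.405 FPKM in RIPK1_D138N, 0.0856, 0 and 0.168 in TNFR12_KO, 0.708, 0.956 and 0.277 in WT and 0.0730, 0 and 0 in Sham. Its highest values were in WT, where library 3 overlapped RIPK1_D138N. Cox7a1 stood at 2.03, 5.28 and 4.91% of Cox7a2 in RIPK1_D138N, 2.74, 2.05 and 1.77% in TNFR12_KO, 0.958, 1.47 and 3.22% in WT and 1.06, 0.827 and 1.07% in Sham. The log2 ratio exceeded Sham by 1.64 in RIPK1_D138N, 0.96 in TNFR12_KO and 1.21 in WT (exact p = 0.1 each). The WT percentages overlapped those of Sham, so the p-value in WT rests on the added 1 FPKM. With a pseudocount of 0.1 these differences were 1.90, 1.11 and 0.83. For Cox4i2, Cox6a2, Cox6b2 and Cox8b the minor isoform stayed under the pseudocount of 1 FPKM in every library, and the ratios are not described further.

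Against Sham, few members differed in either mutant. In RIPK1_D138N, 1 of 78 was called higher and 4 lower, against 7.51% and 22.7% of all tested genes (30.2% in either direction), and the median log2 fold change was -0.22 over the members and -0.22 over all tested genes. In TNFR12_KO, 0 were called higher and 4 lower, against 7.46% and 18.1% of all tested genes (25.6% in either direction), with medians of -0.34 and -0.18. At an unadjusted p under 0.05, limma gave 1 higher and 6 lower in RIPK1_D138N and 0 higher and 12 lower in TNFR12_KO. At that threshold 1265 of all 11728 tested genes were higher and 3708 lower in RIPK1_D138N. In TNFR12_KO they numbered 1355 and 3209. The median half-width of the 95% interval was 0.46 log2 units, and the whole interval lay between -1 and 1 for 73 members in RIPK1_D138N and 61 in TNFR12_KO. Libraries did not overlap, lying below Sham, in 8 members in each mutant, against 32.4% of all tested genes in RIPK1_D138N and 28.8% in TNFR12_KO. These comparisons share the Sham libraries, and both medians turned positive with libraries rescaled to 1 sum (0.27 and 0.19), when 5 and 8 members were called higher and 0 lower. Of all tested genes, 15.6% were then called higher and 5.72% lower in RIPK1_D138N, and 19.9% higher and 4.03% lower in TNFR12_KO. The share of all called genes that were higher was then 73.2% in RIPK1_D138N and 83.2% in TNFR12_KO, against 24.9% and 29.2% on the deposited scale.

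Ndufa8, a disulfide-bonded accessory subunit on the intermembrane side of complex I, was called lower in each mutant. It read 113, 107 and 131 FPKM in RIPK1_D138N, 120.4, 141 and 113 in TNFR12_KO, 39.5, 47.4 and 36.5 in WT and 256, 154 and 207 in Sham. In deposited FPKM, all mutant libraries lay below all Sham libraries and above all WT libraries. With libraries rescaled to 1 sum or median-of-ratios scaling, 0 members were called lower than Sham in either mutant, Ndufa8 included. It fell by 0.79 ± 0.20 (SE) in RIPK1_D138N (limma adjusted p = 0.0108) and by 0.69 ± 0.20 in TNFR12_KO (limma adjusted p = 0.0232) against Sham on the log2 scale.

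Ndufb3, a small membrane subunit, was also called lower in each. It read 115, 106 and 112 FPKM in RIPK1_D138N, 119, 127 and 97.6 in TNFR12_KO, 31.3, 38.8 and 30.9 in WT and 211, 131 and 188 in Sham. Mutants and Sham did not overlap in deposited FPKM, and neither call held under those 2 scalings. Its log2 fold change was -0.64 ± 0.19 (SE) in RIPK1_D138N (limma adjusted p = 0.0251) and -0.60 ± 0.19 in TNFR12_KO (limma adjusted p = 0.0373).

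The other calls were Atp5s at -0.78 and Atp5g2 at -0.48 in RIPK1_D138N (limma adjusted p = 0.0148 and 0.0484), and Sdhd at -0.70 and Ndufa9 at -0.58 in TNFR12_KO (limma adjusted p = 0.0394 and 0.0298). Ndufb8 had -0.69 in TNFR12_KO with a limma adjusted p of 0.0563. None of the 5 RIPK1_D138N calls held with replicate 1 alone. The RIPK1_D138N count of members lower was 2 without replicate 2, without replicate 3 or without Sham library 3, and 1 without Sham library 1. The TNFR12_KO count was 0 without replicate 1, without replicate 3 or without Sham library 1 or 3, and 7 without replicate 2.

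Between the mutants no member was called, against 0.929% of all tested genes, 0.35% higher and 0.58% lower. At an unadjusted p under 0.05, limma gave 2 members higher, Sdhd and Cox7a1, and 1 lower, Atp5s, in RIPK1_D138N against TNFR12_KO. At that threshold 541 of all 11728 tested genes were higher and 903 lower. The log2 fold change was positive in 64 members and negative in 14, against 4874 and 6849 of all tested genes. The median log2 fold change was 0.14 over the members and -0.05 over all tested genes. It was 0.15 in complex I, 0.11 in II, 0.10 in III, 0.08 in IV and 0.15 in V. For Sdhd it was 0.55 (95% interval 0.06 to 1.04, limma adjusted p = 0.334) and for Cox7a1 0.76 (0.09 to 1.44, limma adjusted p = 0.326). Ndufa7, Ndufab1 and Ndufv3 had 0.37, 0.34 and -0.15. The interval lay between -1 and 1 for 76 of the 78 members. Leaving out TNFR12_KO replicate 3, in which most members read lowest of that group, turned the median to -0.04.

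Assembly factors were also higher in the mutants than in WT, with smaller medians than the subunits. Of 49 tested assembly factors, which build the complexes without staying in them, 35 were called higher and 1 lower in RIPK1_D138N, and 38 higher and 0 lower in TNFR12_KO, against WT, with median log2 fold changes of 0.88 and 0.90. In WT against Sham, 47 were called lower, with a median of -1.23. Among all tested genes, 29.8% and 29.6% were called higher in the mutants against WT, and 41.9% lower in WT against Sham. Cox17, the copper chaperone of the oxidase and highest of the list, averaged 159 ± 26.5 FPKM in RIPK1_D138N, 148 ± 20.3 in TNFR12_KO, 74.2 ± 10.47 in WT and 197 ± 46.1 in Sham (SD, n = 3 each). Cox16, another oxidase factor, had 1.82 and 1.82 in the mutants against WT. Tmem186, a complex I assembly factor, went the other way in RIPK1_D138N at -0.51 (limma adjusted p = 0.0322). Against Sham, 1 of the 49 was higher and 12 lower in RIPK1_D138N, and 0 and 8 in TNFR12_KO, shares near the 22.7% and 18.1% of all tested genes called lower. The 1 higher was Atpif1, the inhibitor of the ATP synthase, at 0.63 (limma adjusted p = 0.0404).

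The tricarboxylic acid cycle and pyruvate dehydrogenase feed the chain with NADH and succinate. Of 18 tested genes, 16 were called higher in RIPK1_D138N and 18 in TNFR12_KO against WT, and 18 were called lower in WT against Sham, with medians of 1.08, 1.07 and -1.27. The shares of all tested genes were 29.8% and 29.6% higher, and 41.9% lower. Fh1, fumarate hydratase, read 183, 134 and 148 FPKM in RIPK1_D138N, 159.8, 137 and 119 in TNFR12_KO, 24.99, 37.2 and 28.0 in WT and 401, 378 and 447 in Sham. The 4 groups fell in 3 separate bands, with both mutants between WT and Sham. Its log2 fold change was -1.40 in RIPK1_D138N and -1.56 in TNFR12_KO against Sham (limma adjusted p = 0.000299 and 0.000152), and -3.74 in WT against Sham. Mdh2, malate dehydrogenase, had 1.08 and 0.91 in the mutants against WT. Idh2 was called higher in RIPK1_D138N against Sham at 0.77 (limma adjusted p = 0.0175), where 3 genes of the list were lower, and 4 were lower and none higher in TNFR12_KO. Among all tested genes, 22.7% were lower in RIPK1_D138N and 18.1% in TNFR12_KO against Sham, and 7.51% and 7.46% higher.

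Of 14 genes for electron carriers and ubiquinone synthesis, 12 were called higher in RIPK1_D138N and 11 in TNFR12_KO against WT, and 13 were called lower in WT against Sham. The shares of all tested genes were 29.8% and 29.6% higher, and 41.9% lower. Etfb and Etfa, the electron transfer flavoprotein of fatty acid oxidation, averaged 515 ± 48.1 and 225 ± 15.1 FPKM in RIPK1_D138N, 425 ± 64.8 and 218 ± 29.0 in TNFR12_KO, 128 ± 34.0 and 52.4 ± 11.5 in WT, and 792 ± 137 and 265 ± 31.3 in Sham (SD, n = 3 each). Against Sham, 5 of the 14 were lower in RIPK1_D138N and 3 in TNFR12_KO, and Coq8a, a kinase-like factor of ubiquinone synthesis, was higher in both at 1.22 and 1.09 (limma adjusted p = 0.00506 and 0.0103). The shares of all tested genes were 22.7% and 18.1% lower, and 7.51% and 7.46% higher.

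Subunits encoded in mitochondrial DNA could be read for 8 of 13 genes, since mt-Co1, mt-Co3, mt-Atp6 and mt-Atp8 were listed at 0 in every RIPK1_D138N, TNFR12_KO and WT library and mt-Cytb in every TNFR12_KO library. Values of 0 for such abundant transcripts can be failed estimates. Of the other 8, 7 were called higher in RIPK1_D138N and 8 in TNFR12_KO against WT, with medians of 1.03 and 1.48, and 7 were called lower in WT against Sham, with a median of -1.39. The shares of all tested genes were 29.8% and 29.6% higher, and 41.9% lower. With all 13 counted as listed, 8 were higher and 0 lower in RIPK1_D138N, 8 higher and 1 lower in TNFR12_KO, and 12 lower in WT against Sham. mt-Nd2 read 4479, 5279 and 6423 FPKM in RIPK1_D138N, 11899, 5239 and 8296 in TNFR12_KO, 2253, 1322 and 1958 in WT and 3968, 5996 and 4958 in Sham. WT was lowest, and TNFR12_KO replicate 1 was far above the rest. mt-Nd1, next in level, had 1.42 and 1.43 in the mutants against WT and -1.09 in WT against Sham.

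Regulators of mitochondrial biogenesis were called in both directions, as were all tested genes. Of 12 tested, 2 were called higher and 3 lower in RIPK1_D138N, and 2 higher and 2 lower in TNFR12_KO, against WT, and 2 were higher and 4 lower in WT against Sham. Of all tested genes, 29.8% were higher and 21.9% lower in RIPK1_D138N and 29.6% higher and 17.5% lower in TNFR12_KO against WT, and 16.4% higher and 41.9% lower in WT against Sham. Against Sham, 0 were higher and 6 lower in RIPK1_D138N, and 1 higher, Ppargc1b at 0.81 (limma adjusted p = 0.00859), and 3 lower in TNFR12_KO. Of all tested genes, 7.51% were higher and 22.7% lower than Sham in RIPK1_D138N, and 7.46% and 18.1% in TNFR12_KO. Nrf1, the factor whose motif is marked in the promoters above, read 1.66, 2.84 and 2.19 FPKM in RIPK1_D138N, 2.36, 1.93 and 2.21 in TNFR12_KO, 8.32, 6.38 and 7.08 in WT and 3.32, 2.79 and 3.75 in Sham. WT was highest without overlap, opposite to the subunits, with log2 fold changes of -1.36 in RIPK1_D138N and -1.38 in TNFR12_KO against WT, and 0.95 in WT against Sham (limma adjusted p = 3.41e-05, 3.55e-05 and 0.000448). Pprc1, a coactivator of NRF1, had -1.99, -1.37 and 0.88 (limma adjusted p = 0.000159, 0.00264 and 0.0261). Esrra, the main ERR of liver by level here, had 0.81, 1.19 and -0.70 (limma adjusted p = 0.00166, 0.000109 and 0.00359). Tfb1m, a mitochondrial rRNA methyltransferase, had 0.52, 0.63 and -1.92 (limma adjusted p = 0.0207, 0.00784 and 1.42e-06). Tfam, which packages and transcribes mitochondrial DNA and was highest of the list, had 0.56, 0.63 and -0.62 and was not called. Ppargc1a, the coactivator PGC-1alpha, read at most 1.79 FPKM and was not tested.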

How the data were processed

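Mouse liver RNA for 12 libraries, 3 in each of 4 groups, was extracted with Trizol and made into NEB RNA Ultra libraries, per the labels' protocols. The authors deposited 1 table of FPKM values per gene, normalized by transcript length and library. STAR 2.5.4a, Cufflinks 2.2.1, Cuffdiff and build mm10 are named in the submitters' processing notes. FPKM carries no counts, so the depth behind each value is unknown and no count model was run. Fragments shared with processed pseudogenes or paralogs may have been split between genes.

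Levels were tested as log2(FPKM + 1), so fold changes are on that scale and understate the change of low genes. The 11728 genes that reached 1 FPKM in 3 or more libraries were fitted with limma 3.58.1 in R 4.3.3, with 4 group means over all 12 libraries and a mean-variance trend. P-values were adjusted by the Benjamini-Hochberg method over all tested genes, and under 0.05 a gene was called. Paralog ratios were tested with an exact two-sided permutation test in SciPy 1.17.1. Promoter shares were not tested, and their intervals cover counting error only. The fit was also run on simulated libraries that shared their gene means except for a small set of changed genes. That setting has no broad shift between groups, so the run cannot vouch for the fit under the shifts seen here.

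The members, the gene lists and the tests were chosen with earlier results of these data known. Genes named were, per complex, the 3 members highest in mean FPKM; per comparison, the 3 largest and 3 smallest fold changes among members averaging at least 5 FPKM; members called against most others or under the filter; the paralog pairs; and, per list, the 2 highest genes and any called against the rest. Uqcrc2, Cyc1, Uqcrfs1, Ndufa9 and Atp5s, and other genes of the lists, were chosen after their values were seen. Transcript lengths are medians per gene of the reference annotation of the same mouse assembly. Alternatives covered pseudocount, filter, scaling, length, spread estimate, libraries and the replicate block. The numbers on the WT and Sham columns fit the title of 1 sample and the description of another, so these columns were matched to their group only.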

Additional observations from a re-analysis of the deposited data

How the results depend on the processing

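Both mutants kept a member median above 0 against WT, and WT a member median below 0 against Sham, under every alternative run. Libraries rescaled to 1 sum gave medians of 0.96 for RIPK1_D138N and 0.89 for TNFR12_KO against WT, -0.68 for WT against Sham. Against Sham the RIPK1_D138N median was then 0.27 and the TNFR12_KO median 0.19. The RIPK1_D138N count lower than WT was then 1, and against Sham 5 members were higher and 0 lower in RIPK1_D138N, and 8 higher and 0 lower in TNFR12_KO. Of all tested genes, 15.6% and 19.9% were then called higher against Sham. Median-of-ratios scaling gave -1.47 for WT against Sham and 0.096 for RIPK1_D138N against Sham, with 2 members higher and 0 lower, and 0 lower in TNFR12_KO against Sham. Quantile normalization gave 0.87 and 0.86 for RIPK1_D138N and TNFR12_KO against WT (1 member lower in each), -0.74 for WT against Sham, 0.079 for RIPK1_D138N (3 higher, 1 lower) and 0.015 for TNFR12_KO (1 higher, 0 lower) against Sham. The shares of all tested genes against Sham were then 9.97% higher and 11.5% lower in RIPK1_D138N, and 9.57% and 10.1% in TNFR12_KO. With the length trend removed the medians were 1.26 for RIPK1_D138N (1 member lower) and 1.15 for TNFR12_KO against WT, -1.22 for WT against Sham and 0.021 for RIPK1_D138N against Sham. The counts against Sham were then 2 higher and 2 lower in RIPK1_D138N, and 2 higher and 1 lower in TNFR12_KO. Over all tested genes these shares were 14.0% higher and 12.9% lower in RIPK1_D138N, and 12.9% and 12.1% in TNFR12_KO. With no filter, 82 members were tested, 1 was lower in TNFR12_KO against WT and 1 higher in WT against Sham. Fitted on only the libraries of both groups, 2 members were lower in RIPK1_D138N and 0 in TNFR12_KO against Sham. Without the 2 libraries with high Xist, 0 were higher and 0 lower in RIPK1_D138N against Sham, where 1 library remains and is assumed to vary like the other groups. The cause of these shifts was not tested.

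Single genes turned direction as follows. Rescaled to 1 sum, Atp5g2 stood at -0.17 in RIPK1_D138N and -0.083 in TNFR12_KO against WT, 0.18 in WT against Sham and 0.0067 in RIPK1_D138N against Sham. In WT against Sham, Cox7a2l stood at 0.43, Uqcrc1 at 0.099 and Cox7a1 at 0.024. Atp5s also stood above Sham there, which made 5 members turned in that comparison with Atp5g2 included. With quantile normalization, Cox4i1 stood at -0.12 in each mutant against WT, Atp5g2 at -0.32 in RIPK1_D138N and -0.24 in TNFR12_KO against WT and 0.074 in WT against Sham, and in that comparison Cox7a2l at 0.36 and Uqcrc1 at 0.029. With the length trend removed, Cox7a1 stood at 0.026 in WT against Sham. With a pseudocount of 0.1, the Cox7a1 over Cox7a2 log2 ratio differed by 0.28 in TNFR12_KO against WT, where it was -0.25 with 1. The YY1 share of member promoters was 4.17% with only the upstream bases. With 1 library left out at a time, the median ranged between 1.65 and 1.85 in RIPK1_D138N and 1.48 and 1.71 in TNFR12_KO against WT, and -2.06 and -1.80 in WT against Sham. It ranged between -0.34 and -0.076 for RIPK1_D138N against Sham, -0.49 and -0.20 for TNFR12_KO against Sham, and -0.037 and 0.24 between the mutants. Counts ranged between 75 and 76 members higher in each mutant against WT, and 76 and 77 lower in WT against Sham. Between 1 and 4 were lower in RIPK1_D138N, and between 0 and 7 in TNFR12_KO, against Sham. The 1 member higher in RIPK1_D138N against Sham held in each of these.

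Of the numbered columns, only those of the mutants could be tied to single samples, so no block was fitted in comparisons with WT or Sham. With the replicate block, RIPK1_D138N against TNFR12_KO gave a median of 0.14 and 0 members called, as without it. Libraries with the same number had deviations correlated at -0.0975, -0.202 and 0.0574, so the numbers were not read as a pairing, and not every library correlated best with its own number.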
